A study of Rattus norvegicus with 20 samples.

Results

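The kidney libraries of rats given Maresin 1 (MaR1) or vehicle were divided by Upk1a, the gene of a uroplakin, a membrane protein of the lining of the urinary tract. Libraries in which Upk1a reached at least 1 FPKM (fragments normalised to gene length and to library size) formed the high group, and the others the low group. Of 20 libraries in the series, 10 came from kidney, and 4 of these were in the high group and 6 in the low group. The groups were thus chosen by the measured Upk1a level of the same libraries, so all differences between high and low kidneys are given as a description, without a test.

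All animals were male rats of wild-type genotype (the strain is not named in the labels) that received a telemeter at 8 weeks of age and then a diet with 4% NaCl for 3 weeks. Vehicle rats carried a subcutaneous osmotic minipump that delivered vehicle, and MaR1 rats carried one that delivered up to 1.3 µg of MaR1, a lipid mediator made from docosahexaenoic acid, per kg and day over the same 3 weeks. Kidney cortex and left ventricle of the same 10 rats (5 per treatment) were sequenced as poly-A RNA, 1 library per organ and animal. The high group held 1 vehicle kidney (RB034) and 3 MaR1 kidneys (RB036, RB038 and RB039), and the low group 4 vehicle kidneys (RB030, RB031, RB032 and RB033) and 2 MaR1 kidneys (RB035 and RB037). Treatment and Upk1a group were therefore partly tied, and each difference was fitted with treatment as a covariate.

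Urothelium is the stratified epithelium that lines the renal pelvis, ureter and bladder. Its superficial umbrella cells cover their surface with plaques of uroplakins, in which the tetraspanins Upk1a and Upk1b pair with Upk2 and Upk3a, and its basal cells carry Krt5 and the transcription factor Tp63. Under it lie connective tissue and the visceral smooth muscle that moves urine, and the fat of the renal sinus is close by. None of these belongs to the renal cortex proper, the tissue that the labels name.

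Assigned fragments per kidney ran from 19383232 to 29349679, with RB034 the shallowest. A gene of 1 kb at 1 FPKM received 20.7 to 34.9 fragments, and 12123 to 12670 genes reached 1 FPKM. Proximal tubule genes summed to at least 6608 FPKM in every kidney and heart muscle genes to at most 1.17 FPKM, so the libraries carry kidney RNA as labelled. Some kidneys stood apart from the rest. RB030, in the low group, had the lowest proximal tubule sum (6608 FPKM) and the highest sum of tubular injury genes (3411 FPKM, against 1149 to 2185 FPKM in the other 9). RB039, in the high group, had a sum of fat cell genes of 934.7 FPKM, against 75.2 to 156 FPKM in the other 9. In bulk RNA, fewer cells of a type and less RNA per cell cannot be told apart.

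The genes of the uroplakin plaque are on different chromosomes. In the deposited annotation (no source used here names its genome build), Upk1a spans chr1:85859671-85870354, Upk1b chr11:61953648-61991029, Upk2 chr8:44779198-44781190 and Upk3a chr7:116134874-116139948. Because these genes were high in the same kidneys, the 250 bases before the start of Upk1a and Upk3a in RefSeq (build GRCr8) are shown, Upk1a from chr1:94997581-94997830 on the minus strand and Upk3a from chr7:118014540-118014789 on the plus strand. Upk2 was not among the promoters matched.
Upk1a: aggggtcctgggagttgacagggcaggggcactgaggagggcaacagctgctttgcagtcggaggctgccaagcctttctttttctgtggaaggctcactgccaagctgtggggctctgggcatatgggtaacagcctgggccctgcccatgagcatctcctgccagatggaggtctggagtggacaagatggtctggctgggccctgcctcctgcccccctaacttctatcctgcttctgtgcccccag
Upk3a: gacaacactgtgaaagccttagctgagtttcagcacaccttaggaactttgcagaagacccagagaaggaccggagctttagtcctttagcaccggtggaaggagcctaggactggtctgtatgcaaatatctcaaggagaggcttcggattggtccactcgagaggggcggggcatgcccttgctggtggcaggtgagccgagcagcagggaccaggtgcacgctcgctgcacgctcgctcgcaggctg
Both windows were searched on both strands for the GATA cores AGATAA and TGATAA, the AP-1 site TGANTCA and the Grainyhead-like site AACCNGTT, and matches would be in capitals. These letters were in 0 places of either window. Over windows of the same length before 33469 RefSeq starts, AGATAA was in 10.3%, TGATAA in 7.97%, TGANTCA in 6.34% and AACCNGTT in 1.76%.

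Upk1a, which made the split, stood at 1.47 FPKM in RB034, 4.33 in RB036, 10.99 in RB038 and 23.8 in RB039. In the 6 low kidneys it ran from 0.123 to 0.434 FPKM, with a median of 0.235. The kidneys on either side of the threshold were RB034 (1.47 FPKM, 47 fragments) and RB037 (0.434 FPKM, 19 fragments). Left ventricles, which have no urothelium, showed Upk1a at 0 to 0.367 FPKM, a range that overlaps the low kidneys.

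The other uroplakins of the plaque followed Upk1a from kidney to kidney. Upk3a was at 1.27 FPKM in RB034, 4.03 in RB036, 8.27 in RB038 and 23.1 in RB039, against a low-group range of 0.0343 to 0.112 and median of 0.0496 FPKM. Upk2 was at 0.587, 4.39, 6.11 and 25.1 FPKM in the same order, and the 6 low kidneys together held 3 fragments of it. Upk1b was at 0.512, 2.17, 3.54 and 9.02 FPKM, against 0.0356 to 0.0816 FPKM in the low kidneys. The groups did not overlap for any of these, and within the high group each kept the order of Upk1a. Treatment-adjusted differences, high minus low, were 3.13 ± 0.55 (SE) for Upk3a, 2.93 ± 0.64 for Upk2 and 2.18 ± 0.47 for Upk1b on the log2(FPKM + 0.5) scale, which understates the change of genes near 0. The unadjusted means (± SD) of Upk3a were 9.16 ± 9.70 FPKM (n = 4) and 0.0623 ± 0.0337 FPKM (n = 6).

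The uroplakins kept a similar proportion to one another over the whole range. The ratio of Upk3a to Upk1a was 0.863 in RB034, 0.930 in RB036, 0.753 in RB038 and 0.968 in RB039, and that of Upk1b to Upk1a lay between 0.322 and 0.50. Upk2 varied more, from 0.399 of Upk1a in RB034 (10 fragments) to 1.05 in RB039 (566 fragments). Upk3b, which is also a mesothelial gene, stayed below the filter of a mean of 1 FPKM, with 0.208 to 1.01 FPKM in the high and 0.0247 to 0.0912 FPKM in the low kidneys. Upk3bl1, a uroplakin-like gene, overlapped between the groups (1.14 to 1.56 against 1.12 to 1.94 FPKM).

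**Figure D1:**
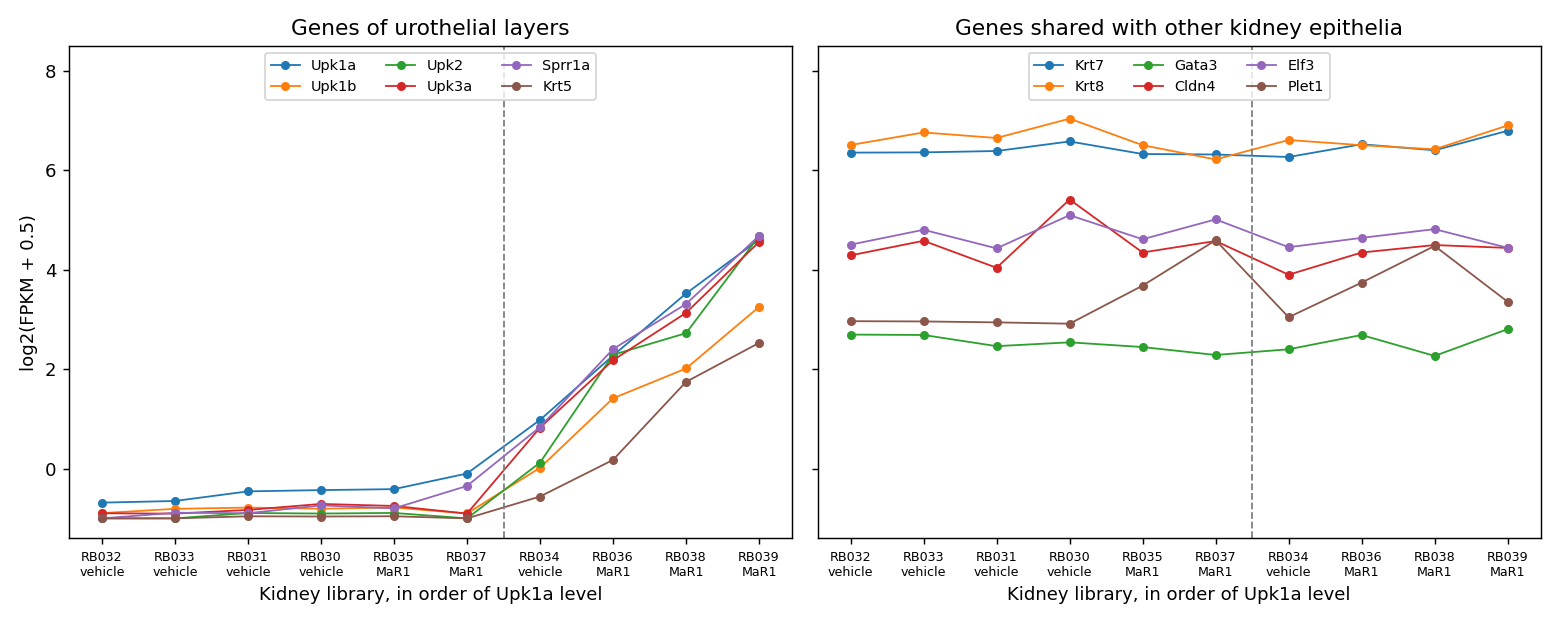
Levels of single genes, as log2(FPKM + 0.5), in the 10 kidneys in order of Upk1a (left to right); each point is 1 library, the label under it gives animal and treatment, and the dashed line is the split at 1 FPKM. Left, genes of urothelial layers go with Upk1a up to 23.8 FPKM (Upk1a) and 5.27 FPKM (Krt5) in RB039; right, genes that other kidney epithelia also express stay level or vary in another order.

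Among genes that averaged 1 FPKM or more in kidney, few stood apart to the extent that the uroplakins did. Of 12445 genes besides Upk1a, 101 (0.812%) were higher in every high kidney than in any low kidney, and 64 (0.514%) were lower. With the added demand of a treatment-adjusted difference of at least 1 on the log2 scale, 9 (0.0723%) were higher and 1 (0.00804%), a locus without a gene name, was lower. The 9 were Upk3a, Upk2, Upk1b, Sprr1a, S100a14, Actg2, SNORD16, Plin4 and a locus without a gene name. SNORD16 is very short (chr8:64673195-64673293), so its values rest on few fragments. Its groups were barely apart, with 1.10 FPKM in RB039 against 1.07 FPKM in RB033. Those of Plin4 were also barely apart, with 0.0431 FPKM in RB034 against 0.0404 FPKM in RB035, and its mean rested mainly on RB039 (10.9 FPKM). Over all genes tested the median difference was 0.05, and 62.4% of genes were on the higher side. Among the 101 genes, 10 (9.90%) also followed the order of Upk1a within the high group, as did 505 (4.06%) of all genes tested. Because the split used these same libraries, and because genes that are near 0 in the low kidneys passed the filter only through the high ones, these counts describe the contrast and carry no test.

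The balance of higher and lower genes rested on the scaling. The split of 101 higher to 64 lower, 61.2% higher, became 85 to 82 (50.9% higher) with median-of-ratios scaling over the 10 kidneys, and 28 to 121 (18.8% higher) with limma voom, which scales by total fragments. The median of all genes was 0.02 and -0.06 in these 2 scalings. All 30 named higher genes kept a positive and all 15 named lower genes a negative difference in both; 23 and 12 of them remained free of overlap with median-of-ratios scaling, and 13 and 8 with voom. RB031, the low kidney nearest to the high group in 14 of the 15 named lower genes, bounds many of these counts: without it 495 genes were higher and 340 lower free of overlap. The counts also grew over 1.5 times when other single kidneys were left out, to 381 higher and 204 lower without RB038, 291 and 170 without RB039, 186 and 103 without RB035 and 159 and 106 without RB034; the lower count was 118 without RB036 and 100 without RB037.

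**Figure D2:**
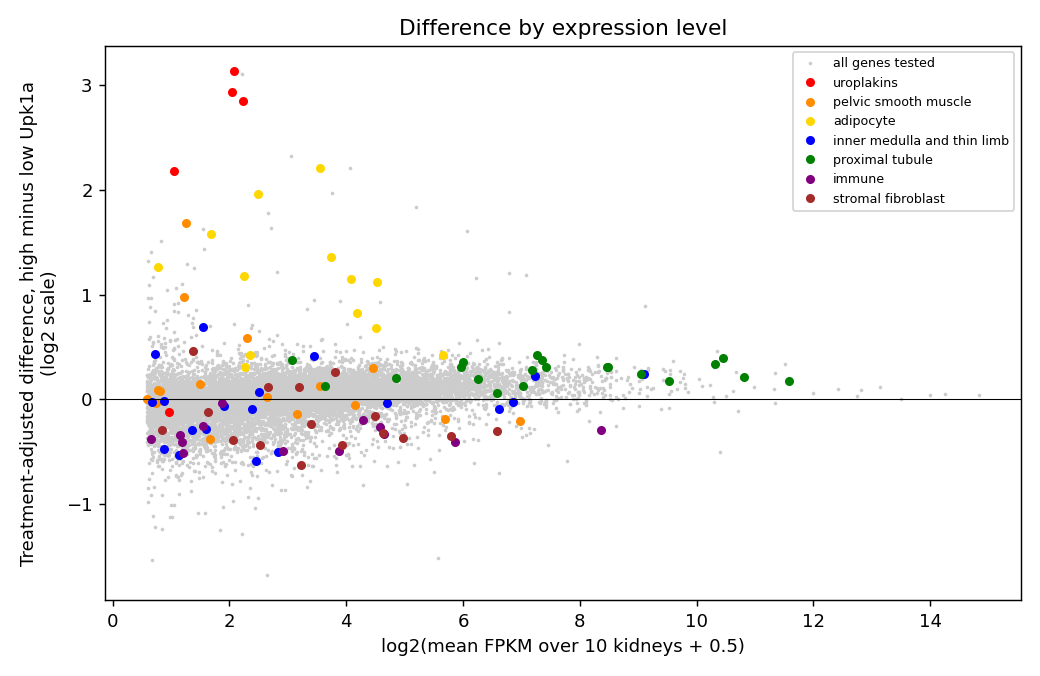
Treatment-adjusted difference, high minus low (log2 scale), against the mean level over 10 kidneys for all genes tested (grey) and the tested members of 7 marker lists (coloured, Upk1a included). Uroplakins lie at 2.18 to 3.13 except Upk3bl1 at -0.12; fat cell genes lie above 0, proximal tubule genes sit just above 0 and immune genes just below.

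A few genes of the superficial and basal urothelial layers went with the uroplakins, though their lists as a whole did not: 11 of 23 superficial and barrier genes tested and 4 of 8 basal and stratified keratin genes were on the higher side. Sprr1a, a small proline-rich protein of the cell envelope, was at 1.29 FPKM in RB034, 4.79 in RB036, 9.43 in RB038 and 25.2 in RB039, and at 0 to 0.286 FPKM in the low kidneys. S100a14, a calcium-binding protein of epithelia, was at 0.490, 1.12, 2.44 and 4.77 FPKM against at most 0.325 FPKM. Both kept the order of Upk1a, with differences of 3.11 ± 0.53 and 1.32 ± 0.36. Snx31, a sorting nexin that binds uroplakins, ran 0.282, 1.11, 1.94 and 6.44 FPKM, and only RB034 overlapped with the low kidneys, whose highest value was 0.299 FPKM.

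Krt5, Tp63, Foxa1 and Grhl3 were lower in level but had the same order. Krt5 was at 0.178 FPKM in RB034, 0.630 in RB036, 2.85 in RB038 and 5.27 in RB039, and at no more than 0.0149 FPKM in the low kidneys. Tp63 was at 0.0860, 0.155, 0.305 and 0.752 FPKM against at most 0.0114 FPKM. Foxa1 and Grhl3, transcription factors of urothelial differentiation, reached 1.16 and 2.26 FPKM in RB039, and their highest low-group values were 0.0653 and 0.315 FPKM. These 4 genes had means below 1 FPKM and so lay outside the counts above. They were picked from listed genes below the filter, most of which did not separate the groups. Free of overlap on the higher side were 3 of 5 such regulators, 1 of 11 basal and stratified keratin genes and 0 of 8 superficial and barrier genes, and 0 were lower. Krt20, for example, overlapped (0.0250 to 0.491 against 0 to 0.0729 FPKM). Without the filter 155 genes in all were higher free of overlap and 104 lower, out of a deposited set of 30560 that includes genes at 0 in every kidney. The share among all genes below the filter was not computed, so the counts of listed members have no background beside them. Krt15, a keratin of basal cells, was at 4.48, 5.92, 9.92 and 7.90 FPKM in the high kidneys against 1.75 to 4.37 FPKM in the low ones, a difference of 0.90 ± 0.17. RB034, the lowest of the high kidneys, was barely above RB037, the highest of the low ones, and Krt15 did not keep the order of Upk1a. Sdc1, a syndecan of epithelia (5.67, 6.09, 9.41 and 12.4 FPKM against 3.90 to 5.31), and Evpl, the envelope protein envoplakin (1.496 to 2.64 against 1.10 to 1.47 FPKM), had smaller differences of 0.56 ± 0.18 and 0.40 ± 0.15 and kept the order.

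Epithelial genes that urothelium shares with collecting duct did not separate the kidneys. Krt7 was at 76.5 to 110 FPKM in the high and 79.2 to 95.1 FPKM in the low kidneys, and Krt8 at 85.2 to 119 and 73.9 to 131 FPKM. The groups also overlapped for Gata3, Elf3, Cldn4, Cldn7, Plet1, Tmem184a and Aqp3. In the list of superficial and barrier genes, 23 of 35 symbols passed the filter, 11 of them higher and 12 lower. The median difference was -0.05 beside 0.05 over all genes. Only Sprr1a and S100a14 were free of overlap, 2 of 23 beside 0.812% of all genes on the higher side. Of 8 basal and stratified keratin genes that passed, 4 were higher and 4 lower (median 0.00), and of 12 urothelial regulators 9 were higher and 3 lower (median 0.16). Free of overlap were 1 of the 8, Krt15, and 0 of the 12.

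Smooth muscle genes of the visceral type went with Upk1a in part. Actg2, the enteric smooth muscle actin, was at 1.08, 1.12, 3.36 and 11.01 FPKM in RB034, RB036, RB038 and RB039, against 0.152 to 0.698 FPKM, and Cnn1, calponin of contractile smooth muscle, at 1.29, 1.67, 3.11 and 6.35 FPKM against 0.615 to 1.26 FPKM. Both followed the order of Upk1a, with differences of 1.68 ± 0.53 and 0.98 ± 0.35. Myh11 was above all low kidneys in RB039 (11.9 FPKM) and RB038 (5.22 FPKM), but RB034 and RB036 lay within the low range (2.53 to 4.52 FPKM), and Tagln overlapped entirely (36.8 to 66.2 against 32.9 to 69.8 FPKM). Of 16 smooth muscle genes tested 10 were higher and 6 lower, with a median of 0.05 equal to that of all genes. Actg2 and Cnn1 were the only 2 of the 16 free of overlap, beside 0.812% of all genes on the higher side.

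The ratio of FPKM between the ends of the high group, with no low-group level taken off, differed among these genes. Levels in RB039 were 16.2 times those in RB034 for Upk1a, 17.6 times for Upk1b, 18.1 times for Upk3a, 19.6 times for Sprr1a and 29.6 times for Krt5 (on 8 fragments in RB034), but 10.2 times for Actg2 and 4.94 times for Cnn1. For Upk2 the ratio was 42.7, on 10 fragments in RB034. Actg2 and Cnn1 had low-group means of 0.395 and 0.962 FPKM, beside 1.08 and 1.29 FPKM in RB034. Upk1a and Upk3a had low-group means of 0.236 and 0.0623 FPKM, beside 1.47 and 1.27 FPKM in RB034. The smaller ratios of Actg2 and Cnn1 therefore do not show a smaller rise above the low kidneys.

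Fat cell genes were high mainly in 1 kidney. Plin4, a lipid droplet protein, was at 10.9 FPKM in RB039 and at 0.867 in RB036, 0.160 in RB038 and 0.0431 in RB034, against at most 0.0404 FPKM in the low kidneys. Fasn, fatty acid synthase, was at 69.4 FPKM in RB039 and at 6.02 to 11.4 FPKM in the other 9. Genes general to fat cells were at high levels there, with Fabp4, a fatty acid carrier, at 172 FPKM in RB039 and 17.0 in RB036, Adipoq, adiponectin, at 120 and 13.2 FPKM, and Cfd, adipsin, at 111 and 8.85 FPKM. So was Ucp1, the uncoupling protein of brown fat, at 106 FPKM in RB039 and 5.93 in RB036. All 13 fat cell genes that passed the filter were higher in the high group, with a median of 1.15. Without RB039, 9 of them were still tested, 7 were higher and the median was 0.30. The level of Plin4 and Ucp1 in RB034, whose uroplakins were well above the low kidneys, was 0.0431 and 0 FPKM, so fat cell genes and uroplakins did not go together there. S100b, expressed by glia and by fat cells, behaved likewise (15.9 FPKM in RB039, at most 1.12 FPKM elsewhere).

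Genes of the inner medulla did not go with Upk1a. Fst was at 16.7 FPKM in RB037, a low kidney, and at 0.757 FPKM in RB039, and Slc14a2, the urea transporter of the inner medullary collecting duct, was at 3.83 FPKM in RB037 and at most 0.785 FPKM in every other kidney. Slc14a1, a urea transporter of descending limbs and vessels, was similar in RB037 (2.57 FPKM), RB038 (2.93 FPKM) and RB039 (2.89 FPKM). Of 19 inner medullary and thin limb genes tested, 6 were higher and 13 lower (median -0.03). Sptssb, a subunit of serine palmitoyltransferase that was placed on that list, instead followed the uroplakins at 0.195, 1.05, 1.74 and 5.11 FPKM against at most 0.0547 FPKM. Collecting duct (7 of 12 higher, median 0.03), thick ascending limb (3 of 11, median -0.15) and podocyte genes (10 of 13, median 0.07) had overlapping groups throughout. So did intercalated cell (4 of 14 higher, median -0.16), distal convoluted tubule (7 of 9, 0.12), lymphatic and nerve (4 of 7, 0.16), cell cycle (1 of 9, -0.10), immediate early and heat shock (5 of 8, 0.06) and red cell genes (0 of 2, -0.16) and the 3 mesothelial genes that passed the filter (3 higher, 0.21).

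**Figure D3:**
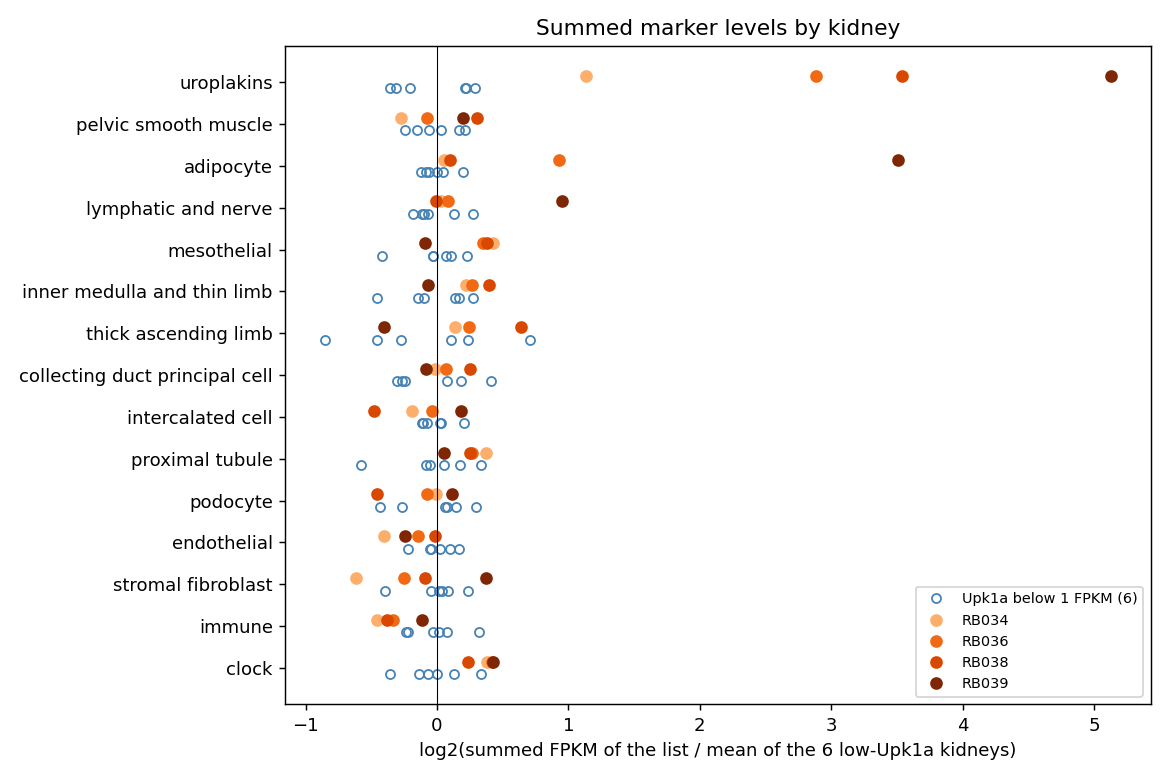
Summed FPKM of 15 marker lists in each kidney, as log2 of the ratio to the mean of the 6 low kidneys (open circles, low kidneys; filled, the 4 high kidneys from lightest for RB034 to darkest for RB039). The uroplakin sum, which leaves out Upk1a and includes Upk3bl1, runs from 3.72 FPKM in RB034 to 59.5 FPKM in RB039. The fat cell sum is far to the right in RB039 alone, and the other lists overlap or nearly so.

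Some nephron and clock genes differed by small amounts. All 20 proximal tubule genes tested were higher in the high kidneys, with a median of 0.30 beside 0.05 over all genes, yet the groups overlapped for each of them. With voom 17 of 20 were higher (median 0.18); without RB030 the count was 19, without RB034 15 and without RB039 16. Slc34a1, the sodium-phosphate cotransporter of the proximal tubule, was at 1587, 1304, 993 and 1577 FPKM in RB034, RB036, RB038 and RB039 against 876 to 1573 FPKM, so RB038 lay well within the low range. Of 15 clock genes 13 were higher (10 with voom), beside 62.4% of all genes, and 2 were free of overlap on the higher side, beside 0.812% of all genes: Nr1d2 (29.1 to 33.8 against 22.9 to 28.8 FPKM) and Cry1 (2.25 to 2.63 against 1.06 to 2.15 FPKM). Arntl, which peaks opposite to Nr1d2, was at 0.817 to 1.18 FPKM in the high and 1.02 to 2.99 FPKM in the low kidneys. The time of day of tissue collection is not in the labels, and its part in this difference was not tested.

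Of the 64 genes lower in every high kidney, the 15 of largest difference with a gene name are described; they include genes of connective tissue, lymphocytes and pericytes. Mrc2, a receptor that takes up collagen, was at 4.00 FPKM in RB034, 4.93 in RB036, 5.14 in RB038 and 4.32 in RB039, against 5.55 to 10.5 FPKM (median 8.35) in the low kidneys, a difference of -0.87 ± 0.15. Fbln5, a protein of elastic fibres, was at 29.3, 36.1, 37.5 and 29.1 FPKM against 41.9 to 62.9 FPKM (-0.70 ± 0.14). Frzb, a secreted Wnt inhibitor (9.21 to 10.8 against 12.6 to 21.0 FPKM), Col8a2, a short-chain collagen (1.82 to 2.00 against 2.64 to 3.56 FPKM), and C1r, a complement protease (22.5 to 29.4 against 29.9 to 53.7 FPKM), were likewise lower. For Fbln5 the ends of the high group, RB034 and RB039, were at nearly the same level.

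Lat, an adaptor of the T cell receptor, was at 0.906, 1.08, 0.794 and 1.13 FPKM against 1.28 to 2.94 FPKM (-0.90 ± 0.20), and Ctsw, a protease of cytotoxic lymphocytes, at 0.935 to 1.71 against 1.72 to 3.82 FPKM (-0.88 ± 0.21). Nkg7, of cytotoxic granules, was at 0.590 to 0.863 against 0.937 to 2.00 FPKM. Kcnj8, a potassium channel subunit of pericytes (1.62 to 1.93 against 2.22 to 4.37 FPKM), and Cygb, the cytoglobin of stromal cells (29.3 to 35.1 against 37.1 to 66.7 FPKM), were also lower. The remaining named lower genes were Pear1, Tbc1d10c, Chst15, Olfml3 and Lamc3, with differences from -0.73 to -0.54.

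The lists of related cells were on the same side. Of 13 immune genes 0 were higher (median -0.34), of 16 stromal fibroblast genes 4 (median -0.29), and of 13 endothelial genes 1 (median -0.21), and these counts were the same in all 3 scalings. Within the high group, however, several stromal genes followed the order of Upk1a. Col1a1, a fibrillar collagen, was at 12.5, 18.8, 24.3 and 37.1 FPKM in RB034, RB036, RB038 and RB039 against 14.1 to 26.7 FPKM, and Col3a1 and Dcn had the same order. RB039 had the highest stromal sum of the 10 kidneys (408 FPKM, against 206 to 372 in the other 9) and RB034 the lowest. Fbln2, a fibulin below the filter, was higher free of overlap (0.309 to 1.34 against 0.180 to 0.276 FPKM). RT1-Da, of MHC class II, was the member of these lists that passed the filter and was free of overlap (44.7 to 52.5 against 54.4 to 73.8 FPKM). Tubular injury genes (2 of 12 higher, median -0.34) were on the same side. RB030, with the highest injury sum, also had the highest immune sum (657 FPKM against 384 to 556 in the other 9). Without RB030 the medians were -0.30 for immune, -0.24 for stromal and -0.24 for injury genes; without RB034, the kidney with the lowest immune, stromal and endothelial sums, they were -0.23, -0.08 and -0.26. The part of tubular injury and of the surrounding tissue in these differences was not tested.

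**Figure D4:**
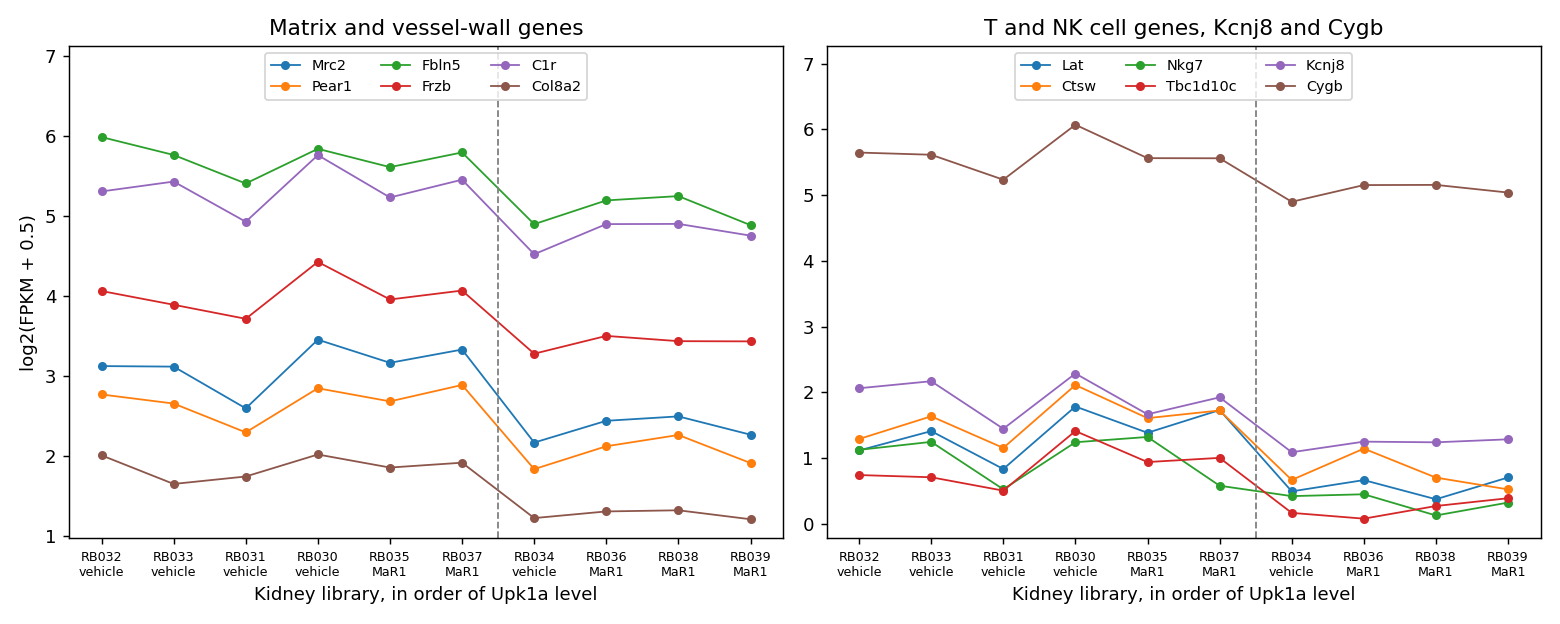
Levels of 12 of the named lower genes, as log2(FPKM + 0.5), in the 10 kidneys in order of Upk1a, with the dashed line at the split. Each gene is lower in the 4 kidneys to the right; RB031 is the low kidney closest to them for most genes, for example 5.55 FPKM of Mrc2 against 5.14 in RB038.

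The remaining named higher genes were of other kinds. Of the 30 named higher genes 9 followed the order of Upk1a. Abcb1b, a drug efflux transporter (5.35 to 7.84 against 3.37 to 5.07 FPKM, 0.65 ± 0.14), and Usp2, a deubiquitinase (22.5 to 26.5 against 8.43 to 20.5 FPKM, 0.59 ± 0.19), did not, nor did SNORD16, a small nucleolar RNA (1.10 to 3.93 against 0 to 1.07 FPKM). Pdxp, Nat8f3, Gpd2, Me1, Taco1, Yars2, Sypl2, Cry1, Zbtb10, Fras1, Idi1, Dpm3, Pfdn6, Tmem69 and Cobll1 differed by 0.29 to 0.72. For several of these the gap between the groups was small beside their spread, for example Taco1 at 6.34 to 7.52 against 3.91 to 6.26 FPKM.

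Hearts of the same animals, which had no part in the split, were compared to ask whether the animals themselves differed outside the kidney. With limma and treatment as a covariate, 0 of 12237 genes (0%) passed an adjusted p of 0.05 between hearts of animals with high and low kidney Upk1a, 196 (1.6%) had an unadjusted p under 0.05, and limma voom called 0, with 148 under 0.05 unadjusted. Vegfd, a lymphatic growth factor, had the smallest p, at 3.68 to 5.04 FPKM in the 4 hearts and 5.38 to 6.76 FPKM in the 6, a difference of -0.48 ± 0.11 (limma adjusted p = 0.999). Of the named kidney genes, 21 higher ones were tested in heart and 15 were on the higher side; of 14 lower ones 10 were on the lower side. Over all heart genes tested 52.9% were on the higher side, with a median difference of 0.01. Sdc1 alone among them had an unadjusted p under 0.05 in the limma fit, and in the opposite direction to kidney (-0.39 ± 0.17, adjusted p = 0.999). A p above the threshold does not show that the hearts were alike.

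Upk2 and Upk3a were at or near 0 in heart, whereas Upk1b was not. Upk2 was at 0 FPKM in 9 of 10 hearts and Upk3a in 7, with maxima of 0.0530 and 0.148 FPKM. Upk1b and Upk3b were found in hearts at up to 4.14 and 8.69 FPKM, both in RB034, where Msln, a gene of mesothelium, was at 18.3 FPKM. In RB033, a low-group animal, the same genes were at 3.86, 7.47 and 17.5 FPKM, and in RB039, with the most kidney Upk1a, at 0.153, 0.131 and 0.0235 FPKM. In kidney Msln was at 0.458 to 2.35 FPKM in the high and at most 0.441 FPKM in the low group, and Lrrn4, another mesothelial gene, at most 0.233 FPKM in any.

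Urothelial RNA was then set beside the treatment that the study compared. Upk1a was at 7.97 ± 9.88 FPKM (SD, n = 5) in MaR1 and 0.441 ± 0.579 FPKM (SD, n = 5) in vehicle kidneys, a difference of 2.23 in mean log2(FPKM + 0.5). It is given without a test, since Upk1a made the split. Upk1a was above 1 FPKM in 3 of 5 MaR1 and 1 of 5 vehicle kidneys. Leaving out 1 kidney moved the difference between 1.57 (without RB039) and 2.82 (without RB035).

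Between MaR1 and vehicle kidneys, limma called 0 of 12446 genes (0%) without and 0 (0%) with log2 Upk1a as a covariate. Unadjusted p-values under 0.05 were found for 840 genes without the covariate and for 1103 (8.86%) with it, 439 higher and 664 lower in MaR1. In all, 500 genes were in both sets, 59.5% of the first and 45.3% of the second. With limma voom and the covariate 0 were called and 1094 had an unadjusted p under 0.05; without RB037 the limma count with the covariate was 233 unadjusted and 0 called. The 6 low kidneys alone, 4 vehicle and 2 MaR1, gave 0 calls and 1213 unadjusted.

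The genes of smallest p for MaR1 kept most of their difference at equal Upk1a. Cldn23, a claudin of tight junctions, was at 0.641, 1.08, 0.564, 1.05 and 1.26 FPKM in vehicle kidneys RB030 to RB034 and at 3.14, 1.95, 3.45, 4.20 and 2.67 FPKM in MaR1 kidneys RB035 to RB039, with no overlap. Its difference was 1.33 ± 0.19 without the covariate, 1.31 ± 0.26 with it and 1.53 ± 0.21 in the low kidneys, with limma adjusted p of 0.298, 0.527 and 0.192. Slc14a1 moved from 1.69 ± 0.29 to 1.29 ± 0.31 and Igf1, insulin-like growth factor 1, from 1.02 ± 0.17 to 0.88 ± 0.21. Wnt7b, a Wnt ligand of the collecting duct, went from 1.60 ± 0.27 to 1.74 ± 0.35, and Apcdd1, a Wnt inhibitor, from 1.17 ± 0.23 to 1.37 ± 0.29. Tmem184a, Qsox1, Tspan12 and Ly6al differed by less than 0.1 between the fits. None of the 9 genes had high and low Upk1a groups free of overlap. With the animal as a block over both organs and the covariate, limma called 6 genes. Of these, Cldn23, Wnt7b, Tspan8, Smim5 and Slc4a11 were higher in MaR1 by 1.08 to 1.74 (limma adjusted p = 0.0174 each). AA986860 (1.25, limma adjusted p = 0.0397) was the other. This fit takes the variance of each gene from kidney and heart together and left these kidney differences unchanged. Only the SE moved, for example from 0.35 to 0.27 for Wnt7b and from 0.29 to 0.48 for Apcdd1, which was not called.

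**Figure D5:**
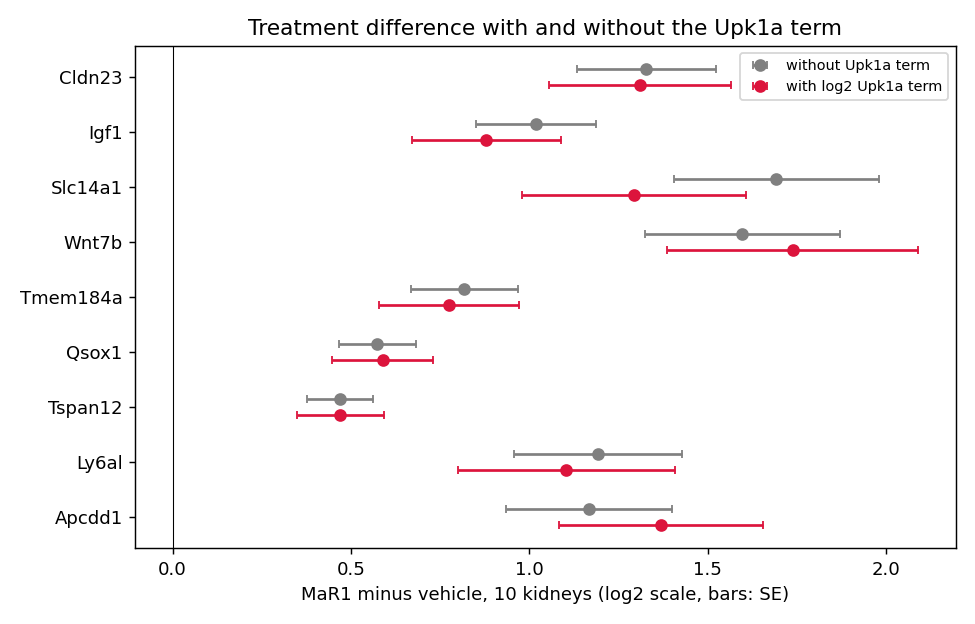
Difference between 5 MaR1 and 5 vehicle kidneys (log2 scale) for 9 genes of smallest p, without (grey) and with (red) log2 Upk1a as covariate; bars are SE. Slc14a1 moves from 1.69 to 1.29 and Wnt7b from 1.60 to 1.74, and the bars of both fits overlap for each gene.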

How the data were processed

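Values are FPKM per gene, deposited by the authors for 30560 genes in 20 libraries; per the submitters' processing notes, fastp (version not given), HISAT2 2.0.5, StringTie 1.3.3b and featureCounts 1.5.0-p3 were used. No source used here states the genome build or the strand setting, so reads of overlapping antisense genes may be shared. Multiplied by gene length, 100% of 371175 values above 0 were whole numbers of fragments (tolerance 0.01). Over 45 kidney pairs a chi-square of fragments per degree of freedom was at least 10.4, so no library repeats another. Each p-value reflects variation among animals.

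Values were fitted as log2(FPKM + 0.5) with limma 3.58.1 (variance trend) in R 4.3.3 for genes that averaged 1 FPKM or more in the libraries fitted. Kidney high minus low was fitted with treatment and reported without p. Hearts and MaR1 against vehicle used two-sided moderated tests with Benjamini-Hochberg adjustment over all genes. A permutation test of Upk1a between treatments was planned but is not reported, because Upk1a made the groups. The steps were tested on simulated data. Of 363 listed symbols 345 were matched (24 lists).

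The split, the lists and the rules were chosen with earlier results of these data known. Named were the 30 higher and 15 lower genes of largest difference among those free of overlap, list members of note, the uroplakins, 5 heart genes of smallest p and 10 treatment genes of smallest p; unnamed loci are left out, and a few genes under this rule are not reported. Ucp1, Fabp4, Adipoq, Cfd, Col1a1, Fst, Slc14a2, S100b, Snx31 and members below the filter were chosen after their values were seen.

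Kidney and heart of an animal were checked for pairing on 10987 genes: correlations of deviations from group means ran from -0.00947 to 0.179, 3 of 10 were above 0.1, and 2 of 10 kidneys were closest to their own heart. The samples come from the same animals by label, so a fit of both organs with the animal as block (statmod 1.5.0, estimated correlation 0.0395 for kidney genes) is given where it changed a call. The settings tried instead were a pseudocount of 0.1 or 1, a mean of 5 FPKM or no filter, median-of-ratios scaling, voom, the block, leaving out each animal, no treatment term, a split at 2 FPKM or by the sum of Upk1b, Upk2 and Upk3a, Upk1a as a continuous term, and, added after seeing the data, leaving out RB034 and RB039. Figures were drawn with matplotlib 3.10.9.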

Additional observations from a re-analysis of the deposited data

Results flagged for a closer look

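Single kidneys stood far from the other 4 of their treatment group in 12 of 92 groups examined among the named genes and Upk1a. A gap of this size (Dixon's criterion) is found by chance in about 1 in 20 groups of unselected values. Here that share is no yardstick, because the genes were chosen for being free of overlap between high and low kidneys, and RB034 is the only vehicle kidney of the high group. RB034 accounted for 6 of the 12, RB039 for 3 and other animals for 3.

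Among vehicle kidneys RB034 was far above the others for Upk1a (1.47 FPKM), Upk3a (1.27 FPKM), Sprr1a (1.29 FPKM), Upk2 (0.587 FPKM), Upk1b (0.512 FPKM) and Zbtb10 (4.10 FPKM). Among MaR1 kidneys RB039 was far above the others for Upk2 (25.1 FPKM), Plin4 (10.9 FPKM) and Fasn (69.4 FPKM). RB037, a MaR1 kidney of the low group, was far below the others for Taco1 (4.73 FPKM) and Yars2 (7.14 FPKM), and RB035 far above for Nkg7 (2.00 FPKM).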

How the results depend on the processing

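The 9 genes higher without overlap by at least 1 became 1 with a mean of at least 5 FPKM and 18 with the split at 2 FPKM; without 1 animal they numbered 8 to 21. The 1 such lower gene became 3 with a pseudocount of 0.1, 0 with a pseudocount of 1, 2 without a filter, 0 with a mean of at least 5 FPKM, 4 with voom, 0 without the treatment term, 0 with the split at 2 FPKM, 0 with Upk1a as a continuous term and 3 without RB034 and RB039; without 1 animal it was 0 to 5. The 101 higher genes without overlap became 155 without a filter, 66 with a mean of at least 5 FPKM, 28 with voom and 495 without RB034 and RB039 (111 to 495 without 1 animal), and the 64 lower ones 104, 29, 121 and 330 (76 to 340). Fewer libraries make overlap less likely by construction; for the other settings the cause was not tested. The heart contrast called 1 gene without RB036 and 0 without any other single animal. With the animal as replicate block, the treatment fit with Upk1a called 6 genes in place of 0, and the block changed no other count of calls. The Upk1a difference between treatments was 1.57 to 2.82 without 1 animal. The 4 kidneys with the largest sum of Upk1b, Upk2 and Upk3a, a group size set in advance, were the same 4. The counts of that split were therefore the same by construction. No difference of a single named gene changed sign under any setting run, but the balance of higher to lower genes free of overlap turned from 61.2% higher to 18.8% with voom, and the thick ascending limb median from -0.15 to 0.06 without RB039. Among single named genes 1122 values kept their call and size, 28 moved by more than the spread between replicates and 2 (Cldn23 and Wnt7b, with the block) passed the threshold. Depth limits the smallest values: 1 fragment of Upk2 is 0.0393 FPKM in RB035, so levels below this are not told from 0 in a single kidney.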
